A study of Mus musculus with 8 samples.

Results

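Nuclear factor kappa B (NF-κB) is a family of transcription factors that T cells use to answer the antigen receptor, costimulation and inflammatory cytokines. The genes described here encode 4 of its subunits (Rela, Rel, Nfkb1 and Nfkb2), 5 inhibitors of the IκB type (Nfkbia, Nfkbib, Nfkbie, Nfkbid and Nfkbiz) and the feedback regulator Tnfaip3. They were taken as the rows with these 10 symbols among 41730 gene rows. All 10 rows were present, and all 10 passed the filter on low counts that left 10037 genes for testing. The list was drawn up with the difference between the treatment groups already known, in particular that of Nfkbia. The group differences of these 10 genes are therefore given as a description, without a test, and they support nothing further.

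The libraries came from mouse CD8+ T cells isolated as naive cells with a magnetic kit and cultured for 24 h. DMSO libraries (replicates 1 to 4) came from cells with the solvent, and RGX-104 libraries (replicates 5 to 8) from cells with 2 µM RGX-104. RGX-104 activates the liver X receptors (LXR), a pair of nuclear receptors that sense oxidised sterols. The mice's strain, sex and age were not given in the sources used here. Whether replicates stand for separate animals or cultures was not given either, so every p-value measures only the spread between these libraries.

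In resting cells the NF-κB dimers are held in the cytoplasm by IκB proteins, which mask their nuclear localisation signal through ankyrin repeats. Signals from receptors activate the IκB kinase complex, IκB is degraded and the dimers enter the nucleus. NF-κB then drives transcription of its own inhibitors and of Tnfaip3, so the messenger RNA of these genes is widely used as a readout of pathway activity. In macrophages, LXR agonists are known to repress a set of inflammatory genes that depend on NF-κB. The comparison asks what happens to the pathway's own transcripts in CD8+ T cells.

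The κB element is the DNA sequence through which NF-κB is known to act on its target genes, so sequence near the start sites is shown first. RefSeq promoter windows on GRCm38.p6, from 250 bases before to 50 bases after an annotated start, were matched to 8 of the 10 genes, with 13 windows. Nfkb1 and Nfkbiz had no entry. The windows were searched on both strands for the 10-base κB consensus, and overlapping matches were merged. A match was found for 6 of the 8 genes, Nfkbia, Nfkbie, Nfkbid, Nfkb2, Rel and Tnfaip3, and in no window of Nfkbib or Rela. Genome-wide, 4.51% of 32851 windows, and 5.14% of 27025 genes in at least 1 window, held a match. For 3 of the 8 genes, Nfkb2, Nfkbid and Tnfaip3, a single window held at least 2 separate matches, against 0.196% of all genes. A match is a stretch of letters and does not show that a factor binds there.

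The 250 bases upstream of the Nfkbia start (chr12:55492648-55492897, minus strand, printed 5′ to 3′ along the gene) are given whole because Nfkbia was the most abundant of these transcripts. Capitals mark the κB match, which lay 29 to 20 bases before the start.
Nfkbia: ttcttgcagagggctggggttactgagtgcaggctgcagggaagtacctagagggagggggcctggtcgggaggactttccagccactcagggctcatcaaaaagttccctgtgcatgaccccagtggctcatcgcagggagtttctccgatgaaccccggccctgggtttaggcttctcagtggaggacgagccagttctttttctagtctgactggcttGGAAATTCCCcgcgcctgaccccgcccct

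Matches of the other 5 genes are shown with their flanks, so that the shared core can be compared, and the coordinates are those of the whole printed stretch. The Nfkb2 stretches at its first annotated start lay at chr19:46304689-46304717 and chr19:46304716-46304745 (plus strand). Those at its second start lay at chr19:46305449-46305478 and chr19:46305695-46305724, and the latter is also the match in the window of start 3. Starts are numbered among those with a window. The RefSeq span of Nfkb2 begins upstream of these, at chr19:46300994, and no window covered that position. The Nfkbid stretches belonged to its second annotated start, at chr7:30422170-30422199 and chr7:30422215-30422244 (plus strand). That of Nfkbie lay at chr17:45555584-45555613 (plus strand) and that of Rel at chr11:23771042-23771070 (minus strand). The Tnfaip3 stretches lay at chr10:19015516-19015545 and chr10:19015403-19015432 (minus strand). Capitals again mark the match.
Nfkb2 distal: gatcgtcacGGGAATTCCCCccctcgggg
Nfkb2 proximal: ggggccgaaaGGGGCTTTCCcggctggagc
Nfkb2 second start, distal: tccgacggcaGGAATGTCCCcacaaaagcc
Nfkb2 second start, proximal: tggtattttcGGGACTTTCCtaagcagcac
Nfkbid distal: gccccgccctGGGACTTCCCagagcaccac
Nfkbid proximal: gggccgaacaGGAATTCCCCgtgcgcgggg
Nfkbie: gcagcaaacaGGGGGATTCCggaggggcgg
Rel: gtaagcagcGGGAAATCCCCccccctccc
Tnfaip3 distal: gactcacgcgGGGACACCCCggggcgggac
Tnfaip3 proximal: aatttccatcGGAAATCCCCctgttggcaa

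**Figure D1:**
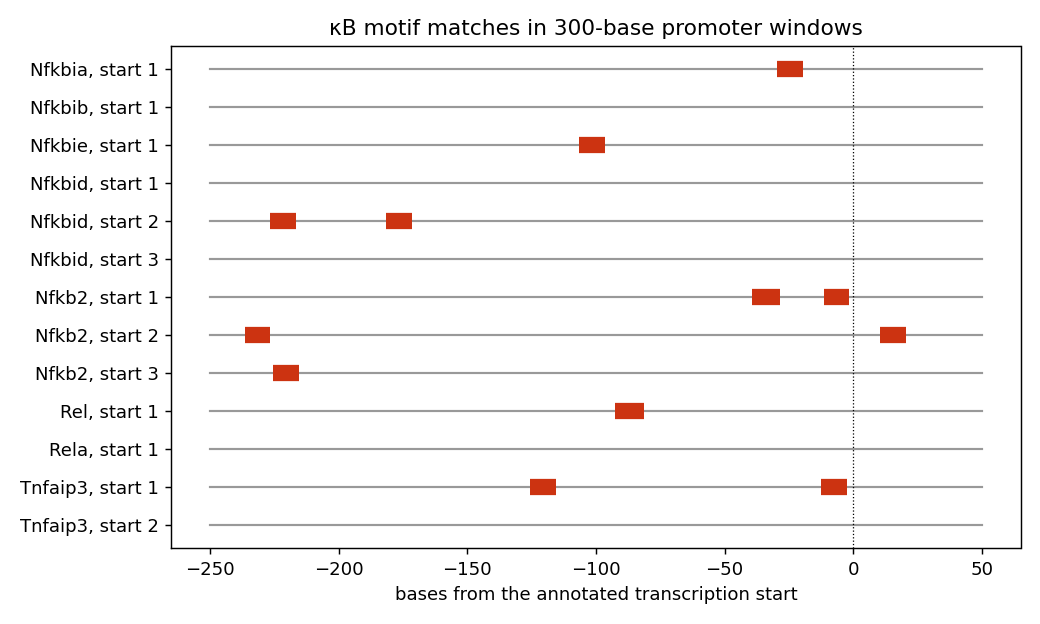
Positions of κB consensus matches (red blocks) in the promoter windows of 8 genes, 1 row per annotated start, in bases from that start. Nfkbib and Rela have no match. The matches of Nfkbia, Nfkb2 (starts 1 and 2) and Tnfaip3 (start 1) include at least 1 within 40 bases of the start.

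Total counts lay between 16196217 and 28287445 per library, and 9772 to 10990 genes had at least 1 count. DMSO replicates 1, 2 and 3 had fewer genes detected (9772 to 10194) than DMSO replicate 4 (10908) and the RGX-104 libraries (10442 to 10990). A number of apparent molecules, estimated from the zeros among low genes, came to 182352 to 211967 in DMSO replicates 1 to 3, 316834 in DMSO replicate 4 and 250375 to 344257 in RGX-104. The 10 listed markers of naive CD8 T cells summed to 5258 to 5570 CPM (counts scaled to a common library total) in DMSO and 5118 to 5791 CPM with RGX-104. Macrophage and monocyte markers, the cells in which repression of NF-κB by LXR is known, summed to 11.9 to 30.9 CPM with DMSO and 12.4 to 20.3 CPM with RGX-104, with 1 of the 8, Fcgr1, at 0 in every library. B cell markers summed to 35.7 to 180.1 and 101 to 147 CPM. The 5 natural killer markers had the highest sum of the other cell types, 351 to 429 CPM with DMSO and 329 to 395 CPM with RGX-104, and stromal markers summed to 63.8 to 124 and 65.4 to 116 CPM. Of the dendritic cell markers Itgax, Clec9a, Xcr1 and H2-Ab1 were at 0 throughout, and so were Ncr1 and Klra8 of the natural killer markers. The natural killer sum therefore came from Klrb1c, Nkg7 and Klrd1, and which cells gave it was not tested. The treatment check was clear: Abca1, Abcg1, Srebf1 and Mylip, direct LXR targets, were all called higher (edgeR quasi-likelihood test, adjusted p from 3.45e-08 to 8.64e-05).

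Nfkbia, which encodes IκBα, the inhibitor that is degraded and remade within each round of signalling, was the most abundant of the 10 transcripts. These are 3′ end counts, which give reads per transcript and not per base. CPM can therefore be set side by side between genes without a length correction, although priming may differ from gene to gene. Cd28, which T cells are known to express, had no count in any library, so an order of counts need not be that of transcripts. In DMSO the mean levels in CPM fell in the order Nfkbia (491), Nfkb1 (211), Rela (128), Nfkb2 (103), Nfkbib (77.5), Nfkbiz (64.2), Rel (47.5), Nfkbid (34.5), Tnfaip3 (21.8) and Nfkbie (13.9). Nfkbia was above Nfkb1, and Nfkb1 above Rela, in 8 of 8 libraries, and in DMSO their ranges did not overlap. The DMSO ranges of Rel and Nfkbid did not overlap either. For every other pair of neighbours in this order the DMSO ranges overlapped, although Nfkbiz was above Rel, and Nfkbid above Tnfaip3, in 8 of 8 libraries. Rela was above Nfkb2 in 3 of 8.

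Nfkbia took 62.7% to 79.9% of the summed counts of the 5 inhibitor genes in DMSO and 70.0% to 77.2% in RGX-104. Its level rested on 79.5 to 209 apparent molecules per DMSO library and 176 to 273 per RGX-104 library. At the other end Nfkbie rested on 0.461 to 7.31 and Tnfaip3 on 1.36 to 8.70 apparent molecules per DMSO library. For Nfkbia the spread between DMSO libraries (coefficient of variation 24.4%) was larger than counting molecules alone would give (9.51%). For Rela and Tnfaip3 the spread in DMSO (19.0% and 49.8%) was near what counting gives (18.8% and 45.8%). In 7 of 20 pairs of a gene and a group the spread was under the counting value, as for Nfkbid in DMSO (11.5% against 36.2%) and Rel in RGX-104 (9.26% against 26.3%), so the apparent molecules are a rough guide only.

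**Figure D2:**
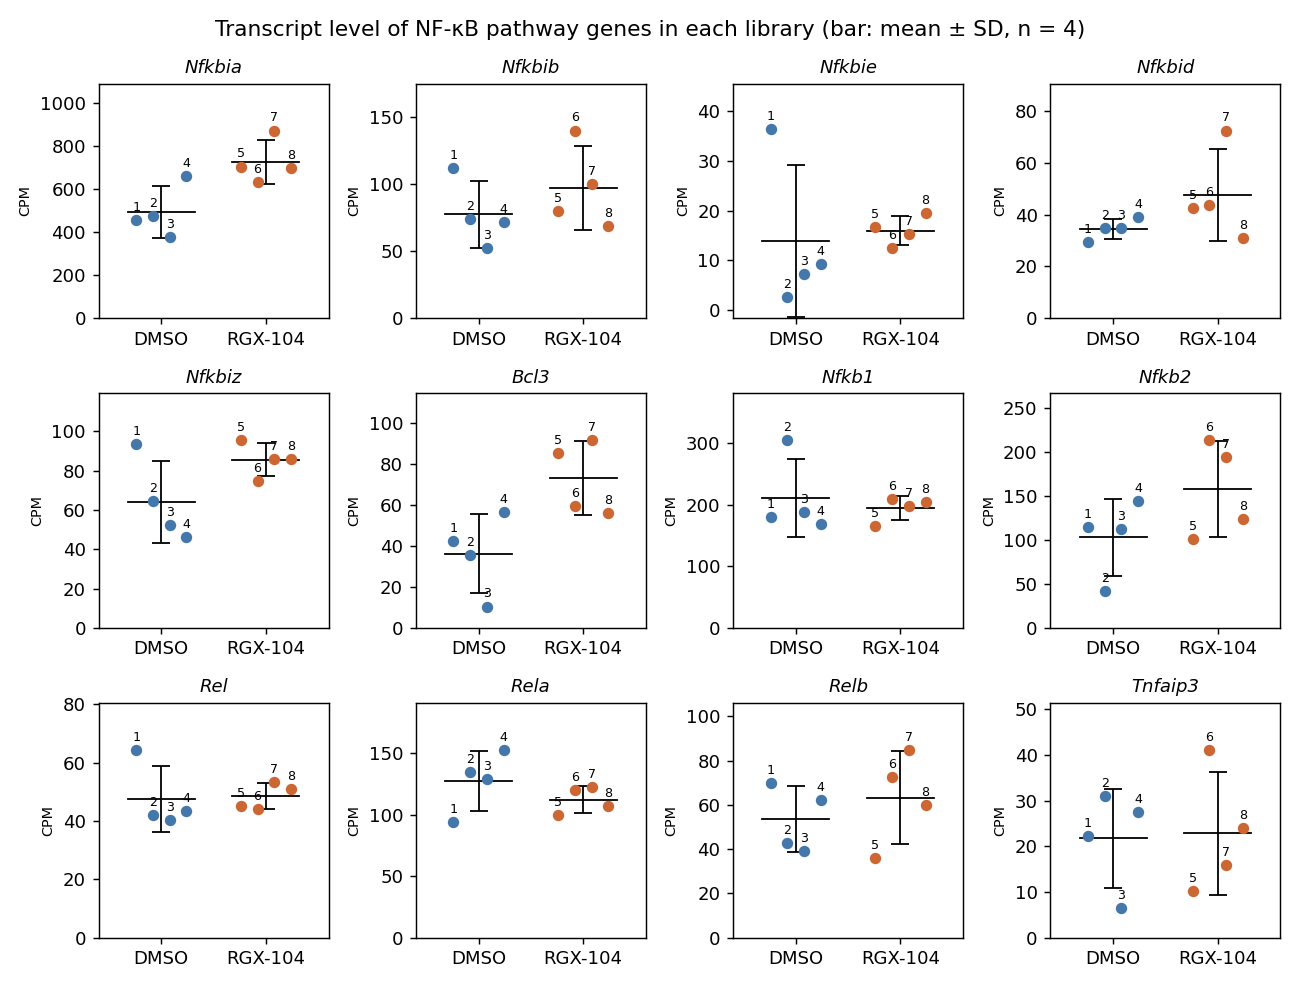
CPM of each gene in every library, numbered by replicate, with the mean ± SD (n = 4 per group) as black bars. Relb and Bcl3, relatives outside the list of 10, are included; in Nfkbia DMSO replicate 4, at 659 CPM, lies inside the RGX-104 range of 633 to 871 CPM.

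None of the 10 genes was called in either direction, where 0.110% of all tested genes were (edgeR quasi-likelihood test, adjusted p under 0.05 over 10037 genes). In none of the 10 did the CPM of all RGX-104 libraries lie outside those of all DMSO libraries, where 3.56% of tested genes had such a separation. Since these genes were chosen on this contrast, nothing is read from either count. Their median log2 fold change, RGX-104 over DMSO, was 0.25, beside 0.01 over all tested genes, with 8 of the 10 above 0. The median was 0.06 without DMSO replicate 3 and 0.44 without DMSO replicate 1. All 5 inhibitors, 2 of the 4 subunits and Tnfaip3 were above 0, beside 5104 of the 10037 tested genes. Nfkbie, Rel and Tnfaip3 lay within 1 SE of 0 and changed sign in some alternative fits. In this bulk measurement fewer cells of a type and less RNA per cell cannot be told apart.

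Gene positions are those of RefSeq on GRCm38.p6, and all 10 genes are protein-coding. Among the inhibitors, Nfkbia (chr12:55489409-55492647, minus strand) stood at 456, 474, 375 and 659 CPM for DMSO replicates 1 to 4 and at 703, 633, 871 and 696 CPM with RGX-104 replicates 5 to 8. DMSO replicates 1 to 3 were below every RGX-104 library, and DMSO replicate 4 lay among them. The log2 fold change was 0.54 ± 0.16 (SE), or 1.46-fold. The value turned on DMSO replicate 4: it was 0.72 ± 0.14 without that library and 0.10 ± 0.18 with that library as the only DMSO sample. DMSO replicate 4 was also the DMSO library with the most genes detected, and a fit that also had genes detected as a term gave 0.33 ± 0.18. The summed level of 24 handling and early response genes was 3705, 3418, 3742 and 3758 CPM with DMSO and 3753, 3856, 3822 and 3865 CPM with RGX-104. As for Nfkbia, DMSO replicates 1 to 3 were below every RGX-104 library, replicates 1 and 3 narrowly, and DMSO replicate 4 lay among them. Klf2 and Btg1 were the most abundant of these genes, with means of 839 and 813 CPM over all libraries. Of the 18 tested genes of this list 9 were above 0 and 9 below, with a median log2 fold change of 0.03. The part of these genes in the Nfkbia values was not tested.

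Nfkbib (chr7:28758251-28766644, minus strand) encodes IκBβ, which is degraded more slowly than IκBα. It stood at 112, 74.1, 52.2 and 71.4 CPM with DMSO and at 80.3, 140, 99.9 and 68.5 CPM with RGX-104, a log2 fold change of 0.31 ± 0.28. The groups overlapped almost fully, with RGX-104 replicate 6 the highest and DMSO replicate 3 the lowest. The log2 fold change was 0.07 without RGX-104 replicate 6 and 0.54 without DMSO replicate 1. Nfkbib overlaps Sirt2 on the opposite strand (mean 58.1 CPM), and the strand setting of the counting is unknown. As 3′ ends were counted, the 2 genes may be incompletely separated only if the overlap reaches a 3′ end. Where the overlap lies was not examined.

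Nfkbie (chr17:45555700-45563169, plus strand) encodes IκBε, a further cytoplasmic inhibitor, and was the lowest of the 10. It stood at 36.5, 2.53, 7.27 and 9.26 CPM with DMSO and at 16.6, 12.4, 15.3 and 19.6 CPM with RGX-104. DMSO replicate 1 was above and the other DMSO libraries below all RGX-104 libraries, so the log2 fold change of 0.18 ± 0.81 went from -0.17 without DMSO replicate 2 to 1.31 without DMSO replicate 1. No direction was read from these values.

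Nfkbid (chr7:30421731-30428749, plus strand) and Nfkbiz (chr16:55811375-55838954, minus strand) encode nuclear IκB proteins, which act on NF-κB at chromatin and can help transcription as well as restrain it. Nfkbid was at 29.3, 35.0, 35.0 and 38.9 CPM with DMSO and 42.7, 43.9, 72.6 and 30.8 CPM with RGX-104 (log2 fold change 0.44 ± 0.36). Of the RGX-104 libraries 3 were above all DMSO libraries and replicate 8 lay inside their range. Without RGX-104 replicate 7, the highest, the log2 fold change was 0.17.

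Nfkbiz was at 93.4, 64.7, 52.5 and 46.4 CPM with DMSO and 95.4, 74.8, 85.8 and 86.2 CPM with RGX-104 (log2 fold change 0.40 ± 0.27). DMSO replicate 1 lay with the RGX-104 libraries and the other 3 DMSO libraries lay below them. Here DMSO replicate 4 was the lowest library, the reverse of Nfkbia, and as the only DMSO sample it gave 0.85 ± 0.39, while leaving out DMSO replicate 1 gave 0.63. Across all 17 alternative settings Nfkbia, Nfkbib, Nfkbid and Nfkbiz kept a log2 fold change above 0. The subunit gene Nfkb2 did so too, and the inhibitor gene Nfkbie did not. The settings reuse the same libraries, so they are not independent of each other.

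Rela (chr19:5637442-5648134, plus strand) encodes p65, the subunit that carries the main activation domain of the classical dimer. It stood at 94.5, 135, 129 and 152 CPM with DMSO and 99.5, 120, 122 and 107 CPM with RGX-104, a log2 fold change of -0.20 ± 0.20. The 4 RGX-104 libraries lay inside the DMSO range. It was below 0 in all 17 alternative settings, from -0.48 with DMSO replicate 4 as the only DMSO sample to -0.10 without that library.

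Nfkb1 (chr3:135584655-135691969, minus strand) encodes p105, which is processed to the p50 subunit and also acts as an inhibitor. It stood at 180, 305, 189 and 168 CPM with DMSO and 166, 210, 198 and 205 CPM with RGX-104 (log2 fold change -0.13 ± 0.19). DMSO replicate 2 was far above the other 7 libraries, which spanned 166 to 210 CPM. Without that library the log2 fold change was 0.10, on the other side of 0.

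Nfkb2 (chr19:46300994-46312400, plus strand) encodes p100, the precursor of p52 in the alternative pathway and itself an inhibitor of Relb. It stood at 114, 41.3, 112 and 144 CPM with DMSO and 101, 213, 194 and 123 CPM with RGX-104. The log2 fold change of 0.60 ± 0.31 was the largest of the 10. It was above 0 in all 17 alternative settings. RGX-104 replicates 6 and 7 were above all DMSO libraries, and DMSO replicate 2 was the lowest of all. The value fell to 0.33 without DMSO replicate 2, to 0.10 with DMSO replicate 4 as the only DMSO sample and to 0.07 ± 0.36 with genes detected as a covariate.

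Rel (chr11:23736847-23770969, minus strand) encodes c-Rel, the subunit most closely tied to lymphocyte activation. It was at 64.3, 42.1, 40.4 and 43.4 CPM with DMSO and 45.1, 44.2, 53.4 and 51.0 CPM with RGX-104 (log2 fold change 0.01 ± 0.31). Apart from DMSO replicate 1 the 7 libraries lay between 40.4 and 53.4 CPM. Tnfaip3 (chr10:19000910-19015410, minus strand) encodes A20, a ubiquitin-editing enzyme that shuts off signalling upstream of the IκB kinases. It was at 22.3, 30.9, 6.41 and 27.5 CPM with DMSO and 10.2, 41.1, 15.9 and 24.1 CPM with RGX-104 (log2 fold change 0.05 ± 0.60). The groups covered the same range, and the value went from -0.41 to 0.29 as single libraries were left out.

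**Figure D3:**
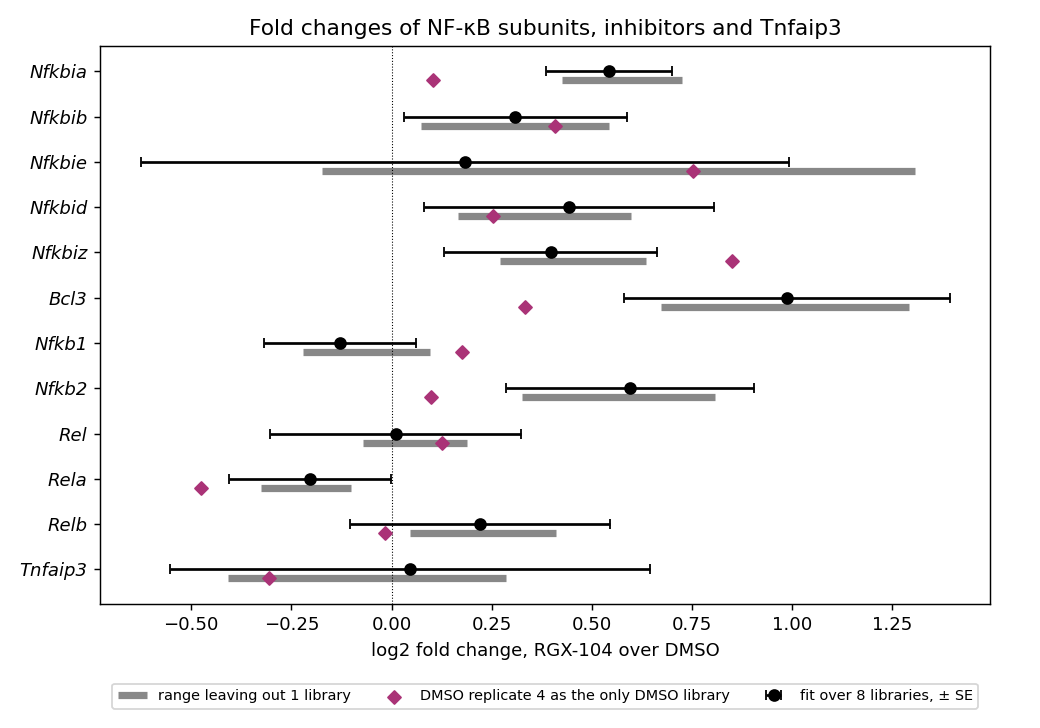
Log2 fold change, RGX-104 over DMSO, of the 10 genes and of Relb and Bcl3 (black, ± SE, 8 libraries), with the range over fits that leave out 1 library (grey) and the value with DMSO replicate 4 as the only DMSO sample (diamonds). For Nfkbia the diamond, at 0.10, lies outside the grey range of 0.43 to 0.72.

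Counts of 2 genes in the same library can be compared without any scaling. The ratio of Nfkbia to Rela counts was 4.83, 3.51, 2.91 and 4.32 in DMSO and 7.07, 5.27, 7.11 and 6.49 in RGX-104. By this ratio the groups did not overlap, and DMSO replicate 4 stayed below the lowest RGX-104 value. Rela had the lowest log2 fold change of the 10 genes (-0.20), and its own level was highest in DMSO replicate 4 (152 CPM). How often ratios of other gene pairs separate the groups was not tested. The ratio of Nfkbia to Nfkb1 was 2.50 ± 1.03 and 3.76 ± 0.66 (mean ± SD, n = 4 per group), and its groups overlapped, with DMSO replicate 4 at 3.92. The 5 inhibitor genes over the 4 subunit genes gave 1.61, 1.24, 1.11 and 1.62 with DMSO and 2.28, 1.54, 2.01 and 1.85 with RGX-104, so that RGX-104 replicate 6 lay inside the DMSO range. Without Nfkbia the same ratio was 0.39 ± 0.14 with DMSO and 0.48 ± 0.06 with RGX-104. These ratios were formed after the values were seen and are a description; a ratio shows unequal levels and not which gene differs.

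**Figure D4:**
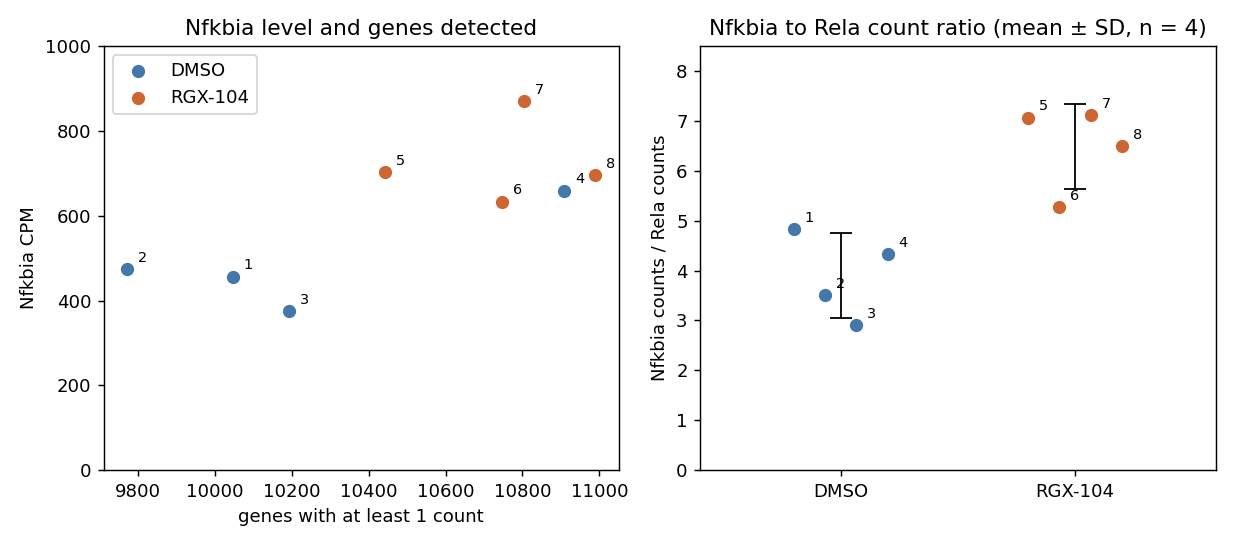
Left, Nfkbia CPM against the number of genes with at least 1 count in each library; right, the ratio of Nfkbia to Rela counts per library with mean ± SD (n = 4 per group). DMSO replicate 4 lies with the RGX-104 libraries on the left (659 CPM, 10908 genes) and with the DMSO libraries on the right (4.32). The level of Rela was highest in that library (152 CPM).

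The genes whose pattern over the 8 libraries was most like that of Nfkbia, among 1827 others with a mean of at least 100 CPM, were Atp5b (Pearson r = 0.91 of log2 CPM), Prpf19 (0.91), Dusp2 (0.90), Gpr146 (0.89) and Sp4 (0.89). Atp5b encodes a subunit of the mitochondrial ATP synthase, Prpf19 a splicing factor, Dusp2 a phosphatase of MAP kinases and Sp4 a transcription factor. None of the 5 was called. All 8 libraries enter each of these correlations, group difference and depth included, and with so many genes and so few libraries high values are common.

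The relatives Relb and Bcl3 were not in the list of 10. Relb, the partner of p52, was at 69.8, 43.0, 39.0 and 62.4 CPM with DMSO and 35.8, 72.6, 84.8 and 59.9 CPM with RGX-104. Its log2 fold change was 0.22 ± 0.33 (adjusted p = 1.00, edgeR). Bcl3, a nuclear IκB protein that binds p50 and p52, was at 42.7, 35.5, 10.4 and 56.8 CPM with DMSO and 85.4, 59.4, 91.7 and 56.1 CPM with RGX-104 (0.99 ± 0.41, adjusted p = 1.00). In Bcl3 the RGX-104 libraries were above DMSO replicates 1 to 3, and DMSO replicate 4 was just above RGX-104 replicate 8. With DMSO replicate 4 as the only DMSO sample its log2 fold change was 0.33.

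The rest of the pathway was read through 7 lists chosen by function, with 125 genes besides the 10, of which 97 were tested. None of the 97 was called by edgeR, DESeq2 or limma-voom. At an unadjusted edgeR p under 0.05, which 3.81% of all tested genes reached, there were 6 of the 97: Bcl3, Birc3, Tnfrsf26 and Junb above 0, and Prkcq and Rbck1 below. A gene that was not called may still differ.

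Of the kinases upstream of IκB and their partner proteins, 11 genes were tested, with 3 above 0, 8 below and a median log2 fold change of -0.11. Ikbke, Tab2 and Ikbkb had the highest levels, and their log2 fold changes were -0.14 ± 0.16, -0.07 ± 0.18 and -0.10 ± 0.30. Ikbkb encodes the catalytic subunit that phosphorylates IκBα, and Tab2 an adaptor of the kinase TAK1. Map3k8, a kinase held in complex by p105, was at 9.41, 0, 3.86 and 11.1 CPM with DMSO and 23.1, 28.9, 21.3 and 12.2 CPM with RGX-104, without overlap but not called (adjusted p = 1.00). Separation with RGX-104 higher was found for 2.20% of all tested genes. An apparent molecule corresponded to 3.16 CPM in DMSO replicate 4 and 2.90 CPM in RGX-104 replicate 8. The Map3k8 values of these libraries, 11.1 and 12.2 CPM, differed by less than that, and nothing is read from the separation.

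Of the adaptors, ligases and further kinases between the receptors and the IκB kinases 19 were tested, 13 above 0 and 6 below, with a median of 0.17. Prkcq, the protein kinase C of the T cell synapse, was at 123, 166, 169 and 134 CPM with DMSO and 101, 116, 92.2 and 83.9 CPM with RGX-104. All RGX-104 libraries lay below all DMSO libraries, a separation shared by 1.35% of tested genes, but the gene was not called (log2 fold change -0.60 ± 0.20). The adjusted p was 1.00 by edgeR and 0.100 by DESeq2. Birc3, which encodes the ubiquitin ligase cIAP2 and is itself a known NF-κB target, was at 17.0, 19.0, 21.5 and 30.05 CPM with DMSO and 44.8, 46.9, 31.5 and 53.9 CPM with RGX-104. Its groups did not overlap either, and it was not called (1.00 ± 0.40, adjusted p = 1.00). Its values in DMSO replicate 4 and RGX-104 replicate 7 differed by less than an apparent molecule, which corresponded to 3.16 and 3.19 CPM there. With DMSO replicate 4 as the only DMSO sample the log2 fold change of Birc3 was 0.52. Rbck1, a subunit of the linear ubiquitin ligase complex, was at 217 ± 35.2 and 171 ± 18.7 CPM (SD, n = 4 per group; log2 fold change -0.36 ± 0.17, edgeR adjusted p = 1.00).

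Of the ubiquitin and RNA feedback regulators 19 were tested, 9 above 0 and 10 below, with a median of -0.04. Tnip1, the A20-binding protein ABIN1, was at 149 ± 29.7 CPM with DMSO and 191 ± 31.0 CPM with RGX-104, and Otud7b, a deubiquitinase related to A20, at 43.0 ± 8.72 and 64.2 ± 11.3 CPM (SD, n = 4 per group). Neither was called. Of the receptors 16 were tested, 12 above 0 and 4 below, with a median of 0.17. The costimulatory receptors Cd27 and Tnfrsf18 were at 313 ± 46.8 and 328 ± 56.3 CPM with DMSO and at 349 ± 26.7 and 357 ± 67.8 CPM with RGX-104. Tnfrsf26, a member of the TNF receptor family, was at 82.8 ± 20.8 and 131 ± 24.9 CPM (log2 fold change 0.64 ± 0.23, edgeR adjusted p = 1.00).

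Of 38 NF-κB target genes 26 were tested, 15 above 0 and 11 below, and the median of 0.08 was close to that of all tested genes (0.01). The most abundant were B2m, the light chain of MHC class I, at 3836 ± 369 and 4220 ± 78.1 CPM, the kinase Pim1 at 1337 ± 143 and 1309 ± 99.1 CPM and the homing receptor Ccr7 at 757 ± 149 and 839 ± 101 CPM (SD, n = 4 per group). Junb, an AP-1 subunit, was at 246 ± 25.5 and 316 ± 39.4 CPM, and Sod2, a mitochondrial superoxide dismutase, at 63.3 ± 13.4 and 89.0 ± 17.7 CPM. None of these was called.

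**Figure D5:**
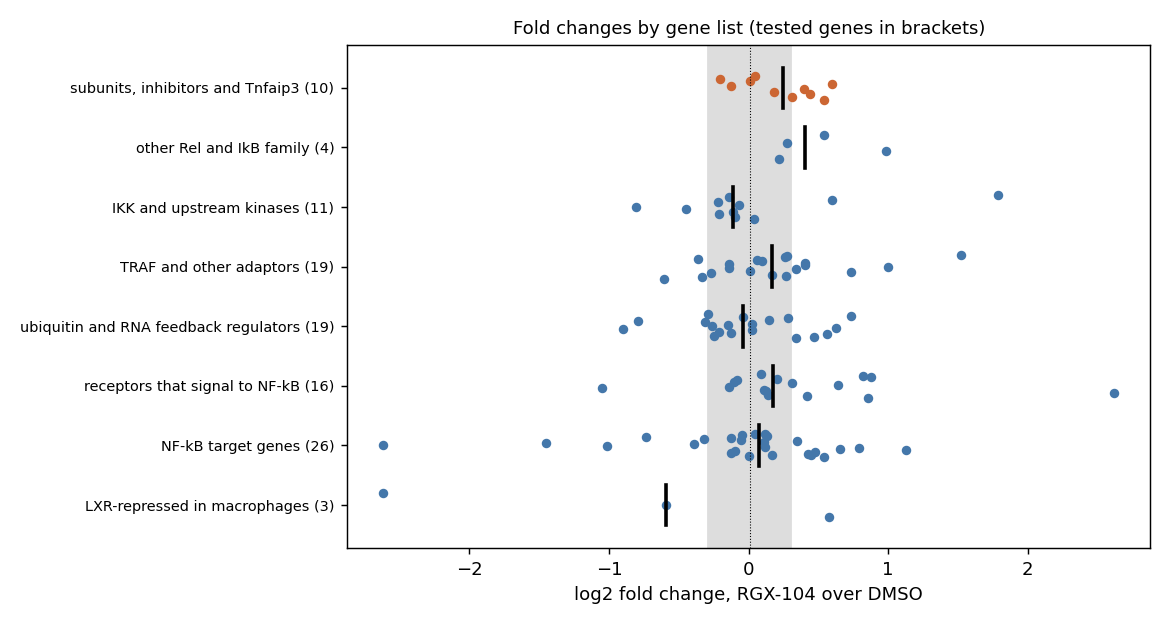
Log2 fold change of every tested gene, by list, with the list median as a black bar; the grey band spans the quartiles of all 10037 tested genes (-0.29 to 0.31). List medians range from -0.59 over 3 tested genes to 0.41 over 4, and those of the larger lists lie inside the band.

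For the genes that LXR agonists are known to repress in macrophages the data could give no answer. Of 14 such genes 3 were tested, and 5, Nos2, Il6, Ccl7, Mmp9 and Tnf, had no count in any library, and a count of 0 over a group leaves room for 0.0381 CPM (DMSO) or 0.0363 CPM (RGX-104), the value of 3 counts, if reads were independent. An apparent molecule corresponded to 2.90 to 5.48 CPM per library, so the real limit is higher. The chemokine Ccl4 was at 7.15, 8.93, 0 and 5.70 CPM with DMSO and at 0, 0.328, 3.27 and 0 CPM with RGX-104. Ccl2 was at 3.91, 0, 6.94 and 0 CPM with DMSO and 0, 4.41, 2.84 and 0 CPM with RGX-104, and Ptgs2 at 1.29, 0, 0 and 3.92 CPM and at 4.28, 0, 3.70 and 0 CPM. These are levels of about 1 molecule, and no difference could be read from them. A row at 0 need not mean an absent transcript: Cd28, Tapbp and Psmb9, which T cells are known to express, also had no count in any library.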

How the data were processed

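The authors deposited raw counts per gene symbol for 8 libraries, without normalization, per the file headers and values. Libraries were made with a QuantSeq 3′ kit, per the labels' protocols. The submitters' processing notes name GRCm38, STAR 2.7.8a, DESeq2 1.4 and R 4.1.0 but not what each was used for. Counter, annotation, strandedness and use of molecular identifiers: not given in the sources used here.

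The main test was edgeR's quasi-likelihood test (version 4.0.16, R 4.3.3) after TMM scaling, with treatment as the only term. filterByExpr with a minimum count of 10 kept 10037 of 41730 rows, and p-values were Benjamini-Hochberg adjusted over these. Each SE was derived from the F statistic of the test (log2 fold change over root F). CPM use library totals. Apparent molecules of a library were solved from its share of zeros among genes at 2 to 20 CPM elsewhere, with Poisson counting assumed. Likeness used TMM-scaled log2 CPM with a prior count of 2. Scripts were tested on simulated data, and no library pair had identical counts.

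Groups came from the treatment label. Library numbers are unique, so no pairing or batch was fitted. The genes and all lists were chosen with earlier results of these data known. The named genes are the 10, Relb, Bcl3, 4 LXR targets, in each list the 3 most abundant and the 3 with the smallest p, and the 5 most like Nfkbia; those named for zeros were chosen after seeing values. Alternatives were DESeq2 1.42.0, limma-voom (limma 3.58.1), other scaling, filters and dispersion, a covariate, counts per apparent molecule and leaving out libraries. Promoter windows and gene positions came from RefSeq tables of GRCm38.p6, and overlapping genes from GENCODE on GRCm38.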

Additional observations from a re-analysis of the deposited data

Results flagged for a closer look

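In 86 groups of 4 libraries examined, covering the genes named in the pathway, 7 held 1 library well apart from the rest of its group; about 1 in 20 would by chance. DMSO replicate 2 had Nfkb1 at 305 CPM, while its group otherwise spanned 168 to 189 CPM. DMSO replicate 1 had Rel at 64.3 CPM, with 40.4 to 43.4 CPM in the rest. In the same library Traf1, an adaptor of TNF receptors, was low at 168 CPM (244 to 254 CPM in the others) and Rbck1 was high at 269 CPM (192 to 204 CPM). In DMSO replicate 2, Irak1, a kinase of interleukin 1 signalling, was low at 104 CPM (186 to 201 CPM in the others). In RGX-104, Tab2 was low at 141 CPM in replicate 5, against 202 to 214 CPM, and Ccl4 was at 3.27 CPM in replicate 7, against 0 to 0.328 CPM.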

How the results depend on the processing

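The count of 0 pathway genes called was the same in all 17 alternatives. Over all genes the main test gave 10 higher and 1 lower. With DESeq2 25 were higher and 19 lower, the covariate for genes detected left 6 higher, and lower calls were 4 without a filter, 3 with limma-voom and 2 with counts divided by apparent reads per molecule. Leaving out 1 library gave 7 to 11 higher and 1 to 3 lower. Nfkbia was called in 1 of 17 alternatives, with counts divided by apparent reads per molecule (log2 fold change 0.52; 0.167% of genes were called there), and nothing is read from this, since the gene was chosen on the same contrast. The other 9 genes were called in none. With DMSO replicate 4 as the only DMSO sample, a setting added after seeing the data in which that library is assumed to vary like the RGX-104 group, Nfkbia moved to 0.10 and Nfkbiz to 0.85. The signs of Nfkbie, Nfkb1, Rel and Tnfaip3 differed between alternatives. The cause was not tested. No paired analysis was possible because the groups share no library numbers. Of the 10 genes Nfkbie and Tnfaip3 rested on the fewest apparent molecules and had the largest SEs (0.81 and 0.60 on the log2 scale).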

Other observations

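The κB consensus was also used to sort all tested genes. Of 476 tested genes with a match in at least 1 promoter window, 54.6% had a log2 fold change above 0, beside 50.9% of 7473 without a match, and the medians were 0.03 and 0.01. Without the 6 of these that belong to the 10 NF-κB genes, the remaining 470 had a median of 0.03. Of 15 other tested genes with at least 2 matches in 1 window, Nfkb2, Nfkbid and Tnfaip3 left out, 9 were above 0, with a median of 0.18. Of the 476 genes with a match 1 was called, Srebf1, a direct LXR target, beside 5 of the 7473 without a match. Another 5 called genes were among 2088 tested genes that had no window. These are counts and medians without a test.

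Among early response genes, which share activating signals with NF-κB, Fos and Jun, partners in AP-1, lay on opposite sides of 0. Fos was at 20.7, 4.46, 20.9 and 20.1 CPM with DMSO and 1.24, 2.72, 3.52 and 0 CPM with RGX-104, without overlap. Separation with RGX-104 lower was found for 1.35% of all tested genes. The RGX-104 values and DMSO replicate 2 lay near or below an apparent molecule, which corresponded to 2.90 to 5.48 CPM per library. Nothing is read from the separation of Fos. Jun was at 48.5, 28.7, 37.4 and 50.2 CPM with DMSO and 77.5, 68.0, 74.8 and 50.1 CPM with RGX-104. Neither was called (edgeR adjusted p = 1.00 for each).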
